A study of Homo sapiens with 12 samples.

Results

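The 40 genes described here encode the enzymes of glycolysis, lactate dehydrogenase, the pyruvate dehydrogenase complex, pyruvate carboxylase and most of the citrate cycle. They were chosen by symbol, and all 40 were listed among the 13091 rows of the deposited expression table that carry a gene name. The study examined the transcription factor ONECUT2 in gastric cancer, and 4 RNA sequencing libraries were analysed, namely MKN74 cells with ONECUT2 overexpression, MKN74 control cells, AGS cells with ONECUT2 overexpression and AGS control cells. MKN74 and AGS are established human gastric cancer lines. Each group held 1 library, so a change within a line has no replicate check and describes these libraries. The sources used here do not say how ONECUT2 was introduced, what the control cells received, or whether the overexpressing cells were 1 clone or a pool. For these 4 groups the labels name no other genotype or treatment. The 8 chromatin samples of the series were not analysed here.

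Glycolysis splits a glucose molecule into pyruvate in the cytosol and yields ATP and NADH on the way. Lactate dehydrogenase turns pyruvate into lactate and restores NAD+, whereas the pyruvate dehydrogenase complex passes the carbon to the mitochondrial citrate cycle as acetyl-CoA. Several steps are served by isoenzymes from separate genes, and many tumours favour particular isoenzymes, such as HK2 for hexokinase and LDHA for lactate dehydrogenase.

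Levels are in CPM, read counts scaled to the library size. The change of a gene is log2(CPM + 1) in ONECUT2 overexpression minus that in control, a scale that understates differences of low genes. Ratios of CPM carry exact conditional binomial intervals (Clopper-Pearson) at 95%. Such intervals hold for counting error alone, because PCR copies are not told from molecules. The listed rows held 38110453 reads in MKN74 overexpression, 36097456 in the MKN74 control, 36492454 in AGS overexpression and 36132888 in the AGS control. These were 83.1% to 88.1% of the library sizes to which the CPM were scaled. ONECUT2 itself stood at 57.6 CPM in MKN74 overexpression and 5.14 CPM in the MKN74 control, and at 18.3 CPM in AGS overexpression and 4.39 CPM in the AGS control. All 6 epithelial markers were listed. Their summed level was 8875 and 14019 CPM in MKN74 overexpression and control and 5229.9 and 5719 CPM in AGS overexpression and control. KRT8 and KRT18 made up most of it, with 5109 and 1956 CPM in MKN74 overexpression and 8729 and 3704 CPM in the MKN74 control. KRT19 was lower in MKN74 overexpression as well, whereas EPCAM (673 against 457 CPM in control), CLDN4 (438 against 346 CPM) and CDH1 were higher. In AGS overexpression KRT8 and KRT18 were lower and the other markers higher. The part of these markers in the results below was not tested. CDH1, the epithelial cadherin, was at 284 and 211 CPM in MKN74 overexpression and control and at 8.74 and 7.63 CPM in AGS overexpression and control. Of 13 fibroblast, immune and endothelial markers, COL1A1 and CD68 were listed, with at most 18.3 CPM. Libraries of whole cultures cannot tell fewer cells of a kind from less RNA per cell.

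The 2 lines differed in isoenzyme use, most of all at lactate dehydrogenase and hexokinase. LDHB, the lactate dehydrogenase subunit typical of oxidative tissues, had 0.0436 CPM (2 reads) in MKN74 overexpression and 0.215 CPM (9 reads) in the MKN74 control, against 758 CPM in AGS overexpression and 1113 CPM in the AGS control. LDHA, the subunit typical of lactate-producing tissue, had 820.0 CPM in MKN74 overexpression and 1066 CPM in the MKN74 control, against 551 CPM in AGS overexpression and 1065 CPM in the AGS control. LDHA was thus high in all 4 libraries with overlapping line values, while LDHB was nearly missing from both MKN74 libraries. LDHB was lower in MKN74, and the ratio of the AGS control to the MKN74 control was 5170.5 (interval 2723 to 11308). LDHB made up 0.00532% of the lactate dehydrogenase reads in MKN74 overexpression and 0.0202% in the MKN74 control, against 57.9% in AGS overexpression and 51.1% in the AGS control. The exact binomial intervals at 95% were 0.000644% to 0.0192%, 0.00924% to 0.0383%, 57.5% to 58.3% and 50.8% to 51.4% for those 4 libraries.

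Hexokinase, which phosphorylates glucose in the first step, showed a second choice of this kind. HK2, the inducible form, had 0.807 CPM (37 reads) in MKN74 overexpression and 0.0239 CPM (1 read) in the MKN74 control, against 137 CPM in AGS overexpression and 115 CPM in the AGS control. HK1, the form found in most tissues, had 303 CPM in MKN74 overexpression and 358 CPM in the MKN74 control, against 63.1 CPM in AGS overexpression and 65.8 CPM in the AGS control. MKN74 cells therefore carried nearly all hexokinase reads on HK1, and AGS cells most of them on HK2. HK2 took 0.266% of the reads of the pair in MKN74 overexpression and 0.00668% in the MKN74 control, against 68.4% and 63.6% in AGS overexpression and control. Within MKN74 the HK2 ratio of overexpression to control was 33.7, with an interval of 5.69 to 1368, the control resting on 1 read. HK2 was below 1 CPM in both MKN74 libraries.

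Enolase differed in the other direction. ENO2, the form known from neurons and neuroendocrine cells, had 15.3 CPM in MKN74 overexpression and 19.2 CPM in the MKN74 control, against 0.208 CPM (9 reads) in AGS overexpression and 0.0731 CPM (3 reads) in the AGS control. ENO1, the general form, had 3315 CPM in MKN74 overexpression and 3010.4 CPM in the MKN74 control, against 1130.5 CPM in AGS overexpression and 1745 CPM in the AGS control. Both forms were higher in MKN74, and ENO2 was below 1% of enolase reads in every library. ALDOC, the brain-type aldolase, showed no such contrast, with 6.61 and 5.17 CPM in MKN74 overexpression and control and 4.65 and 6.70 CPM in AGS overexpression and control.

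**Figure D1:**
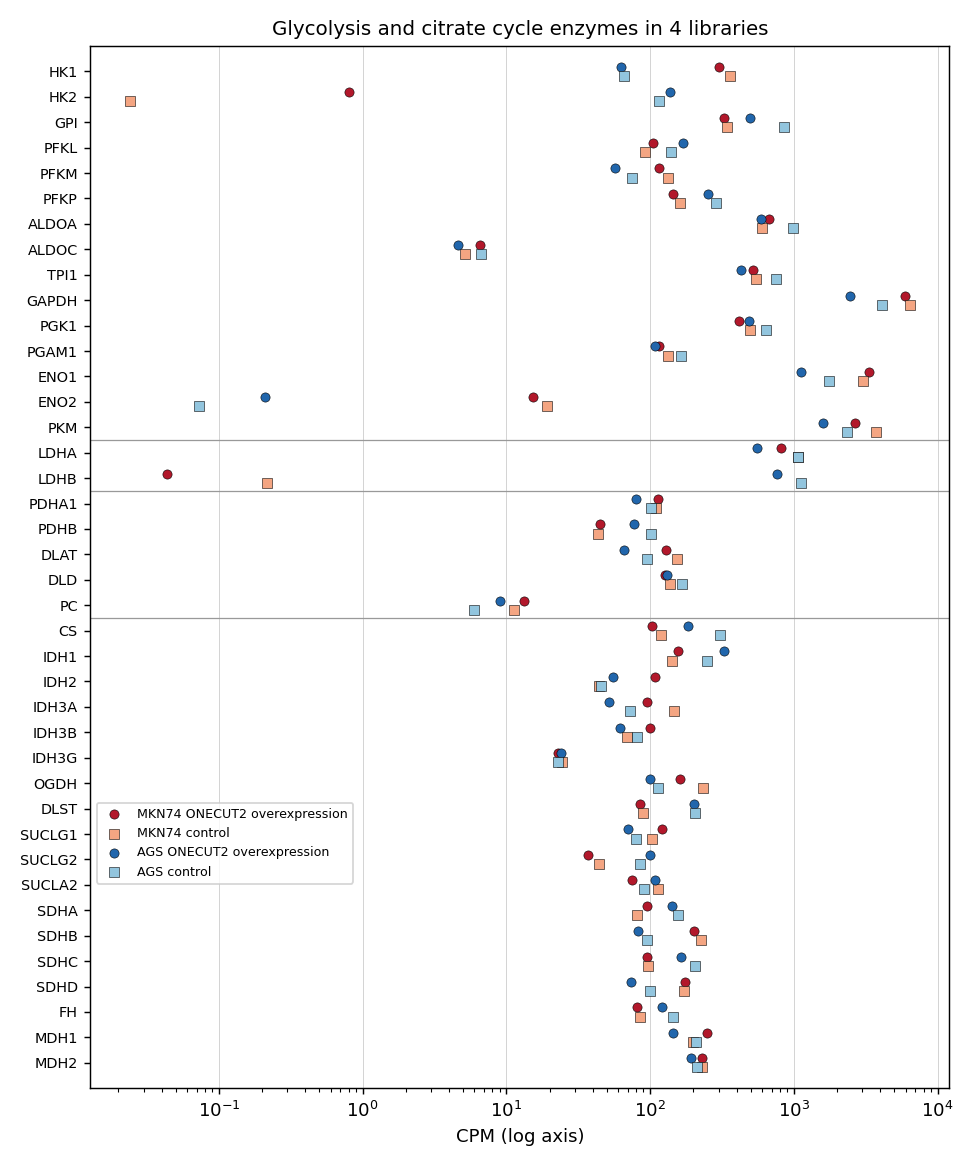
Level of each of the 40 genes in CPM on a log axis, grouped by step (glycolysis, lactate dehydrogenase, pyruvate entry, citrate cycle), with circles for ONECUT2 overexpression and squares for control. HK2 and LDHB lie below 1 CPM in both MKN74 libraries, and ENO2 lies below 1 CPM in both AGS libraries.

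To show the DNA in front of the 3 isoenzyme genes that 1 line nearly lacked, and of LDHA as the partner found in every library, the 250 bases upstream of an annotated start are given below, 5′ to 3′ on the gene's strand, from RefSeq on GRCh38.p14. Capitals mark matches to ACGTG or GCGTG, the core letters of hypoxia response elements, on either strand. The palindrome CACGTG holds 2 overlapping matches. The LDHA window is chr11:18394313-18394562 on the plus strand (of 2 listed starts, the one at the lower coordinate), LDHB is chr12:21657843-21658092 on the minus strand, HK2 is chr2:74833877-74834126 on the plus strand (again the lower of 2), and ENO2 is chr12:6914330-6914579 on the plus strand.
LDHA: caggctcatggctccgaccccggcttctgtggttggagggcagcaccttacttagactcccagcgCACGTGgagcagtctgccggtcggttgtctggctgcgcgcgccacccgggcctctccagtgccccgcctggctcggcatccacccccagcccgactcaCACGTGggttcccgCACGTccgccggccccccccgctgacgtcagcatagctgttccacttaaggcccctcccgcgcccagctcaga
LDHB: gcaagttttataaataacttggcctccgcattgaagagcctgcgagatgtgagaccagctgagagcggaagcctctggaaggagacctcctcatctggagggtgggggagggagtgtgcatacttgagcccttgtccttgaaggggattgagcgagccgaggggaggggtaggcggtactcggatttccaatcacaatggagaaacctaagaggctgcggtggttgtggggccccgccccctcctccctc
HK2: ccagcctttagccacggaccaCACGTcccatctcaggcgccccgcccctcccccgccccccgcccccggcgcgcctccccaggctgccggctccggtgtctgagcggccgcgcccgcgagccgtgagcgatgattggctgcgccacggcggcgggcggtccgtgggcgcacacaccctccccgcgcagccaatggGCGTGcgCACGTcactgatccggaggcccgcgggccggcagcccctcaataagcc
ENO2: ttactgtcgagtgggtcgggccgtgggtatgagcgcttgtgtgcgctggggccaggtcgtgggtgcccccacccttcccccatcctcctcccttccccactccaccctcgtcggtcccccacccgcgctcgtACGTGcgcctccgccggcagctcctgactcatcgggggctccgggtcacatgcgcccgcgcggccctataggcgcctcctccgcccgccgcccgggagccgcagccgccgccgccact

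The LDHA window held 5 matches, HK2 3, ENO2 1 and LDHB 0. At the other listed start, LDHA had 1 match and HK2 had 6. The windows shown held 22 CpG dinucleotides for LDHA, 34 for HK2, 30 for ENO2 and 9 for LDHB. Of the 40 genes 38 had a promoter in the table, with 63 windows in all, OGDH and SDHC being without one. The hypoxia letters were present in 34 of the 63 windows (54.0%), against 43.2% of all 35116 windows of that length. The median number of CpG dinucleotides was 21 per window, against 11 over all windows. Both hypoxia cores contain a CpG, so these shares compare windows of unlike CpG content, and the part of that content was not tested. Core letters of ONECUT sites, taken as ATTGAT or ATCGAT on either strand, were found in 2 of the 63 windows (3.17%), both of HK1, against 6.19% of all windows. The 2 HK1 windows, starting at 69269750 and 69269755 on chromosome 10, largely overlap, so 1 gene of 38 held the letters. These matches describe letters in the sequence and are no record of binding.

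The difference between the lines was tested with limma over the 4 libraries, with line and overexpression as terms and 1 residual degree of freedom. Differences are MKN74 minus AGS in log2(CPM + 1), and p-values were adjusted by Benjamini-Hochberg over all 12340 genes averaging 1 CPM or more. The labels do not say that the 2 libraries of a line came from separate cultures. The residual spread of this fit is how far the line difference varied between overexpression and control. These p-values therefore do not measure a spread between repeat cultures of a line. Of the 40 enzymes 9 were called higher in MKN74, where 20.9% of all genes were, and 13 were called lower, where 22.3% were. Together 22 of 40 were called, against 43.2% of all genes and 41.2% of genes averaging 100 CPM or more. At an unadjusted p under 0.05 the limma fit held 26 of the 40, against 53.6% of all genes. HK2, LDHB and ENO2 passed the filter only through the line in which they are high, so they had to differ and their p-values are not given. Over genes averaging 1 CPM or more in each line, 19 of 37 members were called (51.4%), 8 higher and 11 lower, against 37.4% of all such genes and 40.5% of those at 100 CPM or more. By step, 8 of 15 glycolytic enzymes were called, HK2 and ENO2 among them, and 1 of 2 lactate dehydrogenase genes, LDHB. In pyruvate entry 2 of 5 genes were called and in the cycle 11 of 18, where 43.2% of all genes were.

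As a description, LDHB differed by -9.67, HK2 by -6.54 and ENO2 by 3.99. HK1, which was measured well in both lines, rose in MKN74 relative to AGS by 2.34 (SE 0.16; limma adjusted p = 0.0016), and of the 19 calls it was the 1 kept whichever library was left out. With either the MKN74 overexpression or the MKN74 control library left out, the members called were HK1, HK2, LDHB and ENO2. Of these, HK2, LDHB and ENO2 had to differ, as they passed the filter only through 1 line. Whichever library was left out, fewer calls were made than with all 4, among the members and over all genes alike.

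Among the phosphofructokinases, which catalyse the committed step of glycolysis, the muscle form PFKM rose in MKN74 relative to AGS while the liver form PFKL and the platelet form PFKP fell. PFKM had 116 and 133 CPM in MKN74 overexpression and control, against 56.7 and 75.2 CPM in AGS overexpression and control, a difference of 0.92 (SE 0.16; limma adjusted p = 0.0147). PFKP had 145.5 and 161 CPM in the MKN74 pair and 253 and 288 CPM in the AGS pair, a difference of -0.82 (SE 0.16; limma adjusted p = 0.0185). PFKL had 105 and 91.97 CPM in the MKN74 pair and 170.1 and 141 CPM in the AGS pair, a difference of -0.65 (SE 0.16; limma adjusted p = 0.031). The 2 lines did not overlap in any of the 3, which only describes them, as the share of all genes without overlap was not computed. GPI, the isomerase of the second step, was at 326 and 343 CPM in MKN74 overexpression and control and at 496 and 856 CPM in AGS overexpression and control, a difference of -0.96 (SE 0.24; limma adjusted p = 0.035). ENO1 differed by 1.17 (SE 0.28; limma adjusted p = 0.0325). GAPDH (0.96, SE 0.29) and PKM (0.70, SE 0.23) were higher in MKN74 but missed the threshold, with limma adjusted p = 0.0572 and 0.0663. GAPDH passed under 5 alternatives and PKM under 4, voom weights among them.

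In the citrate cycle, genes for some parts of the same complex differed in opposite directions between the lines. Of all genes 20.9% were called higher in MKN74 and 22.3% lower. How often parts of other complexes differ in this way was not counted. Succinate dehydrogenase oxidises succinate and feeds electrons to the respiratory chain. Its iron-sulphur subunit SDHB had 202 and 228 CPM in MKN74 overexpression and control, against 82.4 and 95.1 CPM in AGS overexpression and control, and its membrane anchor SDHD had 174 and 172 CPM, against 74.0 and 99.4 CPM. The catalytic flavoprotein SDHA had 94.4 and 81.0 CPM in the MKN74 pair, against 143 and 157 CPM in the AGS pair, and the other anchor SDHC 95.2 and 96.7 CPM, against 164 and 204 CPM. SDHB (1.27, adjusted p = 0.00609) and SDHD (1.00, adjusted p = 0.0167) thus rose in MKN74 relative to AGS by limma, and SDHA (-0.77, adjusted p = 0.0281) and SDHC (-0.92, adjusted p = 0.0161) fell.

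The 2-oxoglutarate dehydrogenase complex showed the same kind of split. OGDH, its first component, had 160.5 and 232 CPM in MKN74 overexpression and control, against 100.4 and 114 CPM in AGS overexpression and control (difference 0.85, limma adjusted p = 0.0221). DLST, its succinyltransferase, had 85.3 and 89.4 CPM in the MKN74 pair, against 202 and 205 CPM in the AGS pair (difference -1.21, limma adjusted p = 0.00679). In the pyruvate dehydrogenase complex the acetyltransferase DLAT differed by 0.81 (limma adjusted p = 0.0209) and the E1 beta subunit PDHB by -0.99 (limma adjusted p = 0.0175). PDHA1, the E1 alpha subunit, had 114 and 109 CPM in MKN74 overexpression and control and 80.0 and 101 CPM in AGS overexpression and control (limma adjusted p = 0.228). DLD, a part of both complexes, was not called (difference -0.16, limma adjusted p = 0.463).

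CS, the citrate synthase that opens the cycle, had 103 and 119 CPM in MKN74 overexpression and control, against 185 and 308 CPM in AGS overexpression and control (difference -1.10, SE 0.20; limma adjusted p = 0.0159). SUCLG2, the GTP-forming beta subunit of succinate-CoA ligase, differed by -1.18 (limma adjusted p = 0.0121), whereas SUCLA2, the ATP-forming one, differed by -0.10 (limma adjusted p = 0.761). IDH3A, the catalytic subunit of the NAD-dependent isocitrate dehydrogenase, differed by 0.93 (limma adjusted p = 0.0135), IDH1, the cytosolic NADP-dependent enzyme, by -0.93 (limma adjusted p = 0.0151), and the fumarase FH by -0.67 (limma adjusted p = 0.0316).

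**Figure D2:**
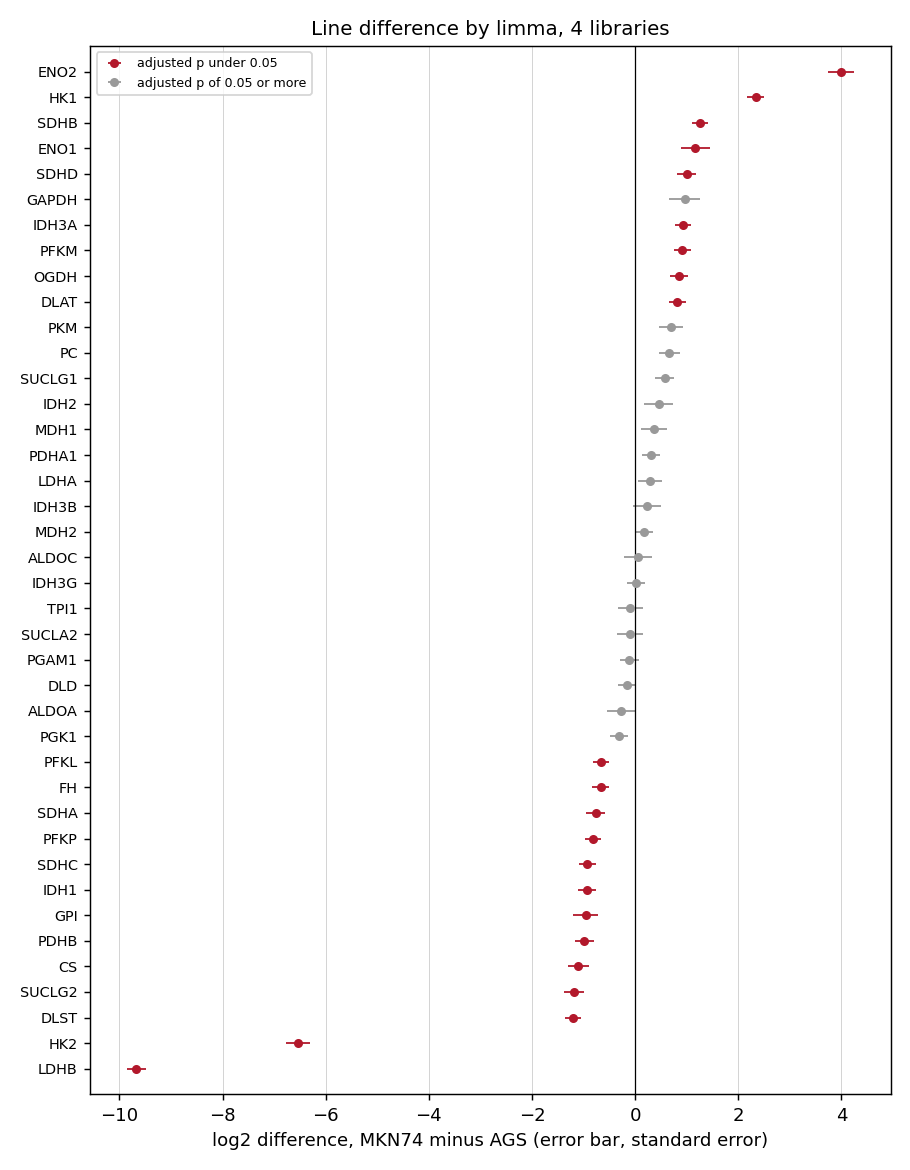
Line difference of the 40 genes, MKN74 minus AGS, in log2(CPM + 1) by limma over 4 libraries, sorted by size, with the standard error as error bar and calls at an adjusted p under 0.05 in red. LDHB (-9.67) and HK2 (-6.54) stand apart at the low end, and ENO2 (3.99) and HK1 (2.34) at the high end. LDHB, HK2 and ENO2 passed the filter only through 1 line and had to differ, so their red marks are not read as results.

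In AGS, most of these enzymes had lower transcript levels in the ONECUT2 overexpression library, and the glycolytic ones by the larger median. Among 39 genes averaging 1 CPM or more in the line, 31 were lower in overexpression, where 50.3% of all genes and 63.9% of genes at 100 CPM or more were. None of the 39 was at least 2-fold lower or higher, where 0.728% and 4.19% of all genes were. At 1.5-fold, 8 were lower, where 5.73% of all genes and 9.25% of genes at 100 CPM or more were, and 0 were higher, where 11.2% of all genes were. Among genes at 100 CPM or more 0.603% were at least 2-fold lower, 2.82% 2-fold higher and 7.14% 1.5-fold higher. Of the 23 members at that level 20 were lower, 8 of them by 1.5-fold, with a median of -0.41. Over the 39 the median change was -0.34, against -0.0034 over all 11675 genes and -0.14 over the 1989 genes at 100 CPM or more. The 8 were LDHA, TPI1, GPI, ALDOA, GAPDH, CS, ENO1 and PGAM1, all but CS enzymes of glycolysis and lactate formation.

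LDHA had the lowest change of the 39, with 551 CPM in AGS overexpression and 1065 CPM in the AGS control, so that its change was -0.95 (ratio 0.517, interval 0.509 to 0.525). TPI1, the triosephosphate isomerase, had 429 CPM in AGS overexpression and 748 CPM in the AGS control (change -0.80), and GPI had 496 and 856 CPM (change -0.79). ALDOA, which cleaves fructose bisphosphate, had 590.4 CPM in overexpression and 992 CPM in control (change -0.75). GAPDH, which makes the NADH of glycolysis, had 2458 CPM in overexpression and 4117 CPM in control (change -0.74, ratio 0.597), although with quantile normalization its change was -0.33. The remaining steps were lower too, at -0.41 for the phosphoglycerate kinase PGK1, -0.59 for the mutase PGAM1, -0.63 for ENO1 and -0.56 for the pyruvate kinase PKM. LDHB was at -0.55. Several of these genes, GAPDH, LDHA and ENO1 among them, have processed pseudogenes of near-identical sequence, and how such reads were counted was not stated.

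The early, committed enzymes of AGS were mixed. HK1 had 63.1 CPM in AGS overexpression and 65.8 CPM in the AGS control (change -0.06, or 0.0026 with scaling to the listed rows; ratio interval 0.91 to 1.01), HK2 was at 0.25 and PFKL at 0.27, while PFKP was at -0.19 and PFKM at -0.40. The 14 tested glycolytic enzymes had a median change of -0.50, and the 18 cycle genes one of -0.18. The summed level of the 15 glycolytic genes was 7980.3 CPM in AGS overexpression and 12309 CPM in the AGS control, and that of the 18 cycle genes 2203 and 2472 CPM.

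In AGS the 4 pyruvate dehydrogenase genes were all lower in overexpression. DLAT had 66.4 CPM in overexpression and 95.9 CPM in control (change -0.52), and PDHB, DLD and PDHA1 were at -0.39, -0.34 and -0.34. DLD is the dihydrolipoamide dehydrogenase shared with the 2-oxoglutarate complex. CS, with 185 CPM in overexpression and 308 CPM in control, was the lowest of the cycle genes (change -0.73, ratio 0.602, interval 0.585 to 0.619). MDH1, the cytosolic malate dehydrogenase, followed at -0.52, and IDH3A at -0.46.

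A few genes were higher in AGS overexpression. PC, the carboxylase that turns pyruvate into oxaloacetate and refills the cycle, had 8.97 CPM in overexpression and 5.97 CPM in control (change 0.52, ratio 1.502, interval 1.28 to 1.77). IDH1 had 325 CPM in overexpression and 249.9 CPM in control (change 0.38), and IDH2, its mitochondrial counterpart, was at 0.27. SUCLA2 (0.25) and SUCLG2 (0.23) were also above 0. Both beta subunits of succinate-CoA ligase were thus higher, whereas the shared alpha subunit SUCLG1 was at -0.18.

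In MKN74 the differences were smaller for most of these enzymes. Of 38 genes averaging 1 CPM or more in the line, 23 were lower in overexpression, where 53.2% of all genes and 65.5% of genes at 100 CPM or more were. The median change was -0.08, against -0.020 over all 11914 genes and -0.089 over the 1970 genes at 100 CPM or more. IDH2 was the 1 gene at least 2-fold higher, where 3.26% of all genes were, and 0 were at least 2-fold lower, where 1.35% were. At 1.5-fold the counts were 1 higher, where 6.61% of all genes were, and 2 lower (IDH3A and SUCLA2), where 4.46% were. Among genes at 100 CPM or more 1.68% were at least 2-fold higher and 0.711% lower, and 3.45% were 1.5-fold higher and 4.37% lower. The summed level of the 15 glycolytic genes was 14651 CPM in MKN74 overexpression and 16068 CPM in the MKN74 control.

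IDH2, which makes NADPH in mitochondria, had 108 CPM in MKN74 overexpression and 44.5 CPM in the MKN74 control, so that its change was 1.27 (ratio 2.44, interval 2.31 to 2.57). The NAD-dependent isocitrate dehydrogenase of the cycle differed among its subunits. Its regulatory subunit IDH3B had 99.7 CPM in overexpression and 69.2 CPM in control (change 0.52, ratio 1.44), while the catalytic IDH3A had 95.1 CPM in overexpression and 146 CPM in control (change -0.61, ratio 0.653). IDH3G, the other regulatory subunit, was at -0.10. The log2 ratio of IDH3B to IDH3A was 1.14 higher in overexpression than in control (interval 1.05 to 1.23), against 0.07 in AGS (-0.036 to 0.18).

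SUCLA2 had 74.4 CPM in MKN74 overexpression and 113 CPM in the MKN74 control (change -0.59), and OGDH had 160.5 and 232 CPM (change -0.53). PKM, at 2673 CPM in overexpression and 3703 CPM in control, was the lowest of the glycolytic genes (change -0.47, ratio 0.722), though at 0 with quantile normalization, in which GAPDH was at 0 as well. LDHA had 820.0 and 1066 CPM (change -0.38), so it was lower in the overexpression library of both lines. MDH1 was at 0.31, ALDOC at 0.30 and PC at 0.22. GAPDH had 5929 CPM in overexpression and 6468 CPM in control (change -0.13), and MDH2, the mitochondrial malate dehydrogenase, had 228.3 and 228.1 CPM.

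**Figure D3:**
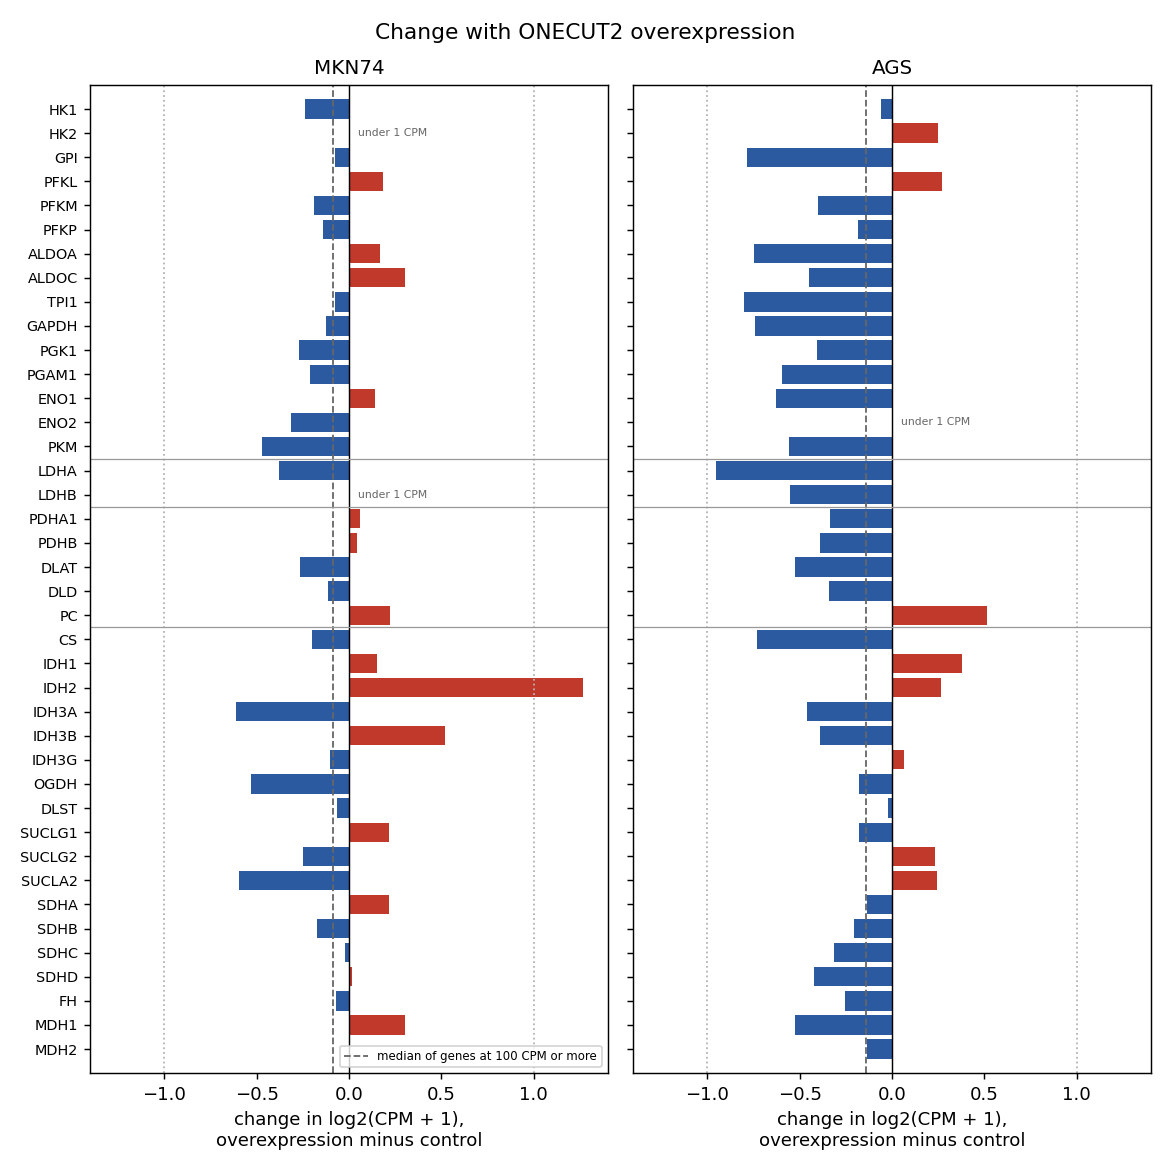
Change of each gene with ONECUT2 overexpression in MKN74 (left) and AGS (right), in log2(CPM + 1), overexpression minus control, from 1 library per group, with dotted lines at 2-fold and a dashed line at the median of genes averaging 100 CPM or more. In AGS 31 of 39 bars point to lower levels, and in MKN74 IDH2 (1.27) passes 2-fold.

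The balance of isoenzymes was followed as the log2 ratio of the CPM of 2 genes within a library, whose difference between libraries does not depend on transcript length. Of 12 pairs, 5 moved by at least 0.5 in MKN74, or 4 with a pseudocount or quantile normalization. The 4 were not the same pairs under both settings. In AGS 3 did, or 2 with quantile normalization. LDHA to LDHB and HK2 to HK1 in MKN74 and ENO2 to ENO1 in AGS are counted, though the rarer gene had few reads in a library. The share among pairs of other genes was not computed, so these counts only describe the 12 pairs. In AGS, LDHA to LDHB moved by -0.40 with overexpression (interval -0.43 to -0.37), LDHA being the lower of the pair relative to control, and HK2 to HK1 moved by 0.31 (0.22 to 0.41). PFKM to PFKL moved by -0.68 in AGS (-0.77 to -0.59) and by -0.38 in MKN74 (-0.46 to -0.29), and PFKP to PFKL by -0.46 (-0.52 to -0.40) and -0.33 (-0.41 to -0.25). In both lines the phosphofructokinase reads therefore shifted toward PFKL, which took 28.5% of them in MKN74 overexpression and 23.9% in the MKN74 control, and 35.4% in AGS overexpression and 27.9% in the AGS control.

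IDH2 to IDH1 moved by 1.13 in MKN74 (1.04 to 1.22) and by -0.11 in AGS (-0.20 to -0.012). MDH2 to MDH1 moved by -0.31 in MKN74 (-0.36 to -0.25) and by 0.39 in AGS (0.33 to 0.46). IDH3G to IDH3A moved by 0.51 in MKN74 (0.37 to 0.65) and by 0.54 in AGS (0.38 to 0.69). PDHA1 to PDHB moved by 0.017 in MKN74 (-0.091 to 0.13) and by 0.055 in AGS (-0.039 to 0.15), with both intervals holding 0. LDHA to LDHB in MKN74 and ENO2 to ENO1 in AGS rest on at most 9 reads of the rarer gene in a library, with intervals of -0.35 to 5.18 and 0.13 to 4.66. The LDHA to LDHB value in MKN74 was 1.93, but -0.16 with a pseudocount of 1 and -0.12 with quantile normalization, so its direction is not settled. HK2 to HK1 in MKN74 was 5.32, but 1.06 with the pseudocount and 0.68 with quantile normalization.

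**Figure D4:**
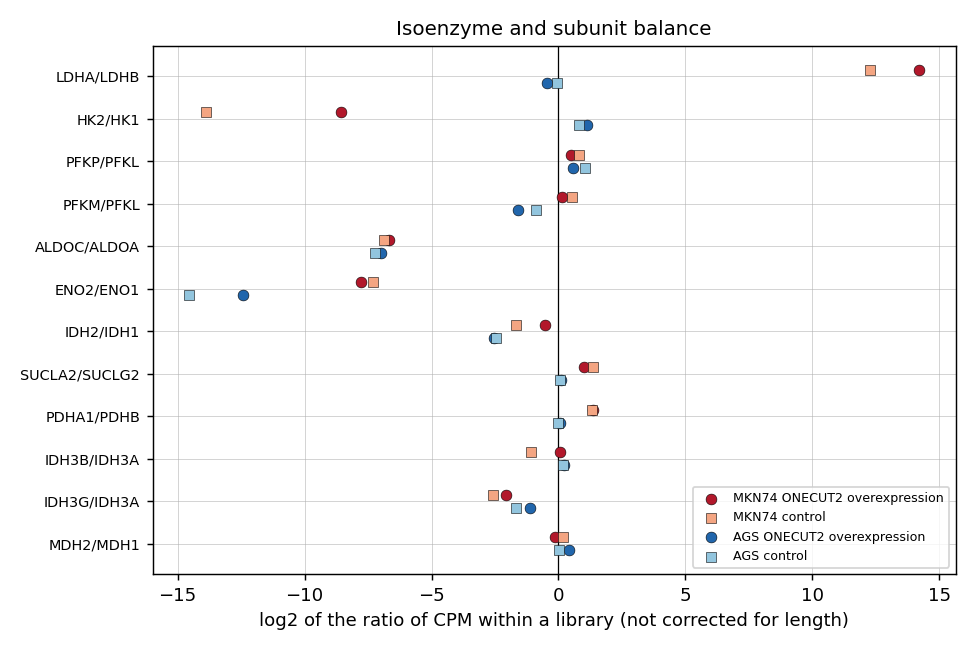
Log2 ratio of the CPM of 12 pairs of isoenzymes or subunits within each library, not corrected for transcript length, with circles for ONECUT2 overexpression and squares for control. LDHA/LDHB lies above 12 in MKN74 and near 0 in AGS, and HK2/HK1 lies below -8 in MKN74 and above 0 in AGS.

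Taking the 2 lines as repeats of overexpression, limma called none of the 40 enzymes and 0% of all genes. Even ONECUT2 itself was not called (common change 2.55, SE 0.38; limma adjusted p = 0.80). Of the 40, 3 had an unadjusted p under 0.05 in this limma fit, where 4.59% of all genes did, and 4 with voom weights, where 7.31% did and 0 genes were called. The 3 were IDH3A (common change -0.54, SE 0.16), LDHA (-0.66, SE 0.23) and IDH2 (0.77, SE 0.28), each with changes of 1 sign in the 2 lines and a limma adjusted p of 0.80. Adjusted p-values above the threshold do not show that levels did not change.

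The related genes below are counted where they averaged 1 CPM or more in the line, and each count stands beside the shares of all genes past 2-fold, 4.19% higher and 0.728% lower in AGS and 3.26% higher and 1.35% lower in MKN74. Of 9 glucose and lactate transport genes 4 were at least 2-fold higher in AGS overexpression and 0 lower, and in MKN74 0 of 8 passed 2-fold either way. SLC2A1, the main glucose importer of proliferating cells, had 1222 CPM in AGS overexpression and 330.5 CPM in the AGS control (ratio 3.70, interval 3.63 to 3.77), SLC2A12 had 15.8 and 5.07 CPM, and SLC2A10 had 17.9 and 4.32 CPM. SLC16A3, a lactate exporter named after its values were seen, completed the 4, with 284 CPM in AGS overexpression and 133 CPM in the AGS control. These 4 transporters were higher in the same AGS library in which LDHA and 7 other enzymes were at least 1.5-fold lower.

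Of 7 regulators of glycolysis 1 was at least 2-fold higher in AGS and 1 lower, and 0 of 6 passed 2-fold in MKN74. TXNIP, an arrestin that limits glucose uptake, had 289 CPM in AGS overexpression and 49.8 CPM in the AGS control, and was listed at 0 in both MKN74 libraries. PFKFB3, which makes the activator of phosphofructokinase, had 50.6 CPM in AGS overexpression and 109 CPM in the AGS control (change -1.09, ratio 0.464), and PFKFB4 was at 0.83. Of 9 genes of pyruvate entry and its control 0 passed 2-fold in either line, with PDP1, a phosphatase that activates pyruvate dehydrogenase, at 0.77 in MKN74 and 0.25 in AGS, MPC1, a subunit of the mitochondrial pyruvate carrier, at 0.17 and -0.81, and the inhibitory kinase PDK1 at -0.19 and 0.64.

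Of 16 partners of the cycle 1 was at least 2-fold higher in AGS, the assembly factor gene SDHAF4 (9.57 CPM in overexpression and 3.83 CPM in control), and 0 of 16 passed 2-fold in MKN74. Of 6 genes of gluconeogenesis and glycogen 1 passed 2-fold in AGS and 0 in MKN74. It was PCK2, the mitochondrial enzyme that turns oxaloacetate into phosphoenolpyruvate, with 344 CPM in AGS overexpression and 34.0 CPM in the AGS control (change 3.30, ratio 10.1, interval 9.58 to 10.7), against 14.5 and 12.3 CPM in MKN74 overexpression and control. PYGB, a glycogen phosphorylase, was at -0.30 in MKN74 and 0.71 in AGS, and PGM1, which links glycogen to glycolysis, at 0.0047 and -0.87.

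In the pentose phosphate pathway 2 of 8 genes were at least 2-fold higher in AGS, PGLS and H6PD at 1.19 each, and 0 of 8 in MKN74. PGD, which makes NADPH and a pentose phosphate, was at 0.32 in MKN74 and -0.34 in AGS. Among 7 minor isoenzymes of the steps 1 was at least 2-fold higher in AGS, HKDC1, a hexokinase-like gene named after its values were seen, with 9.32 CPM in overexpression and 1.85 CPM in control. In MKN74 0 of 4 passed. BPGM, which makes bisphosphoglycerate, was at 0.11 in MKN74 and -0.36 in AGS, and ADPGK, an ADP-dependent glucokinase, at -0.27 and -0.19. Between the lines limma called 8 of these 63 related genes higher in MKN74, where 20.9% of all genes were, and 16 lower, where 22.3% were. These calls include SLC2A6, PGAM2 and ME1 (higher) and SLC2A10, ENO3, OGDHL, TXNIP and ME3 (lower). Each averaged under 1 CPM in 1 line and passed the filter only through the other, so its call is not read as a result.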

How the data were processed

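RNA libraries of 4 groups, 1 each, were analysed, per the labels' titles. The authors deposited 1 table of log2 values, which by the values themselves are log2(CPM + 1). Undoing the log gave whole multiples of a fixed step for 100% of values (within 0.01 of a read), so reads were recovered. They made up 83.1% to 88.1% of the library size that the step implies. Per the submitters' processing notes, the build was hg19 and the tools named, with no role given, were edgeR 3.12.1, STAR 2.5.1, HOMER 4.9.1, Bowtie2 2.1.0 and CASAVA 1.7. The sources used here do not give the counter, its annotation or whether strand was used, so overlapping and antisense genes are uncertain. Of 13109 rows, 18 named by a date were left out, with 0.218% to 0.239% of reads.

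Changes within a line used genes averaging 1 CPM or more in the line, a pseudocount of 1 and a size of 2-fold. The limma fit had line and overexpression as terms, and used empirical Bayes moderation with a mean trend, Benjamini-Hochberg adjustment at 0.05, and was tested on simulated data. Isoenzyme intervals are exact conditional ones for an odds ratio. On the recovered reads voom called 5676 genes for line and 0 for overexpression. The members, lists and pairs were chosen with earlier results of these data known. Fully described were the isoenzyme pairs, committed and entry enzymes, the 5 largest changes each way per line, and up to 3 genes per related list by mean change, except that some items are not reported here. Alternatives were other pseudocounts, filters, scalings, sizes, moderation, voom weights, a term left out and each library left out. Tools were limma 3.58.1 in R 4.3.3, and in Python 3.11.15 scipy 1.17.1, pandas 2.3.3, numpy 2.4.6 and matplotlib 3.10.9.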

Additional observations from a re-analysis of the deposited data

Results flagged for a closer look

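For 10 enzymes the overexpression library differed from its control in opposite directions in the 2 lines, with counting intervals of the ratio that left out 1 in both. They were 10 of the 37 members averaging 1 CPM or more in both lines (27.0%), against 20.8% of all such genes and 28.3% of those averaging 100 CPM or more, so the members' share was near that of genes of like level. With 1 library per group the difference between the lines was not tested. The differences of the changes, MKN74 minus AGS, were 0.914 for ALDOA (0.166 in MKN74 and -0.748 in AGS), 0.912 for IDH3B (0.52 and -0.392), 0.83 for MDH1 (0.305 and -0.525), 0.765 for ENO1 (0.139 and -0.626) and 0.751 for ALDOC (0.303 and -0.448). They were 0.399 for PDHA1 (0.0619 and -0.337), 0.398 for SUCLG1 (0.218 and -0.18) and 0.356 for SDHA (0.219 and -0.137). The 2 beta subunits of succinate-CoA ligase went the other way, at -0.84 for SUCLA2 (-0.593 and 0.247) and -0.48 for SUCLG2 (-0.249 and 0.231).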

How the results depend on the processing

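The median change in AGS stayed below 0 under all 7 alternatives of pseudocount, filter and scaling, between -0.28 (scaling to the listed rows) and -0.39 (common median), and that in MKN74 between -0.012 (quantile normalization) and -0.10 (common median). The MKN74 median minus that of all genes, below 0 as reported, was 0.020 with quantile normalization, and the cause was not tested. With scaling to the listed rows the median of all genes was 0.055 in AGS and 0.032 in MKN74, and with no filter it was 0 in AGS. Changes near 0 took the other sign for DLST in AGS (0.083 with quantile normalization, 0.040 with scaling to the listed rows) for GPI in MKN74 (0.0061 with quantile normalization), for SDHC in MKN74 (0.0056 with quantile normalization, 0.032 with scaling to the listed rows), and with a common median for SDHD (-0.011) and MDH2 (-0.028) in MKN74. HK1 in AGS was at 0.0026 with scaling to the listed rows. At 1.5-fold, 8 members were lower in AGS and 2 in MKN74, and at 4-fold 0 were higher in MKN74. Leaving out 1 library, fits on line alone called between 2 and 8 members higher in MKN74 and between 2 and 10 lower, while the share of all genes called was 13.6% to 33.0%, against 43.2% with 4 libraries. Without MKN74 overexpression or the MKN74 control, the members called were HK1, HK2, LDHB and ENO2, of which HK2, LDHB and ENO2 had to differ. The fit with 3 libraries assumes that the lone sample of a line varies like the other line's pair. Of the 22 line calls, 18 were kept under every other alternative. GPI and IDH3A were lost with overexpression left out as a term, and PFKL and FH without a mean trend. No overexpression call appeared under any alternative. No paired analysis was possible because the labels give no replicate numbers, other than by cell line, which is already a term of the overexpression fit. Counts of at most 9 reads limit LDHB in MKN74, HK2 in the MKN74 control and ENO2 in AGS.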

Other observations

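The malic enzymes, which convert malate to pyruvate, were singled out after their values were seen, and are given as a description. ME1, the cytosolic NADP-dependent form, had 177 and 199.99 CPM in MKN74 overexpression and control, against 0.0231 and 0.0244 CPM (1 read each) in AGS overexpression and control. ME3, a mitochondrial form, had 0.0218 and 0.0718 CPM in MKN74 overexpression and control, against 11.8 and 8.29 CPM in AGS overexpression and control. ME1 and ME3 each averaged 1 CPM or more in 1 line only. ME2, the NAD-dependent mitochondrial form, had 36.1 and 37.1 CPM in MKN74 overexpression and control, against 49.5 and 60.2 CPM in AGS overexpression and control, and missed the threshold (limma adjusted p = 0.0544).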
